A study of Homo sapiens with 3 samples.

Results

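The promoters of the long arm of human chromosome 1 were read in chromatin immunoprecipitation libraries (ChIP-seq) for PAF1 and PHF5A. Each promoter window of hg38 began 2000 bp before a transcription start and ended 500 bp after it, and the long arm was taken as every chromosome 1 window that starts at 143 Mb or beyond. This gave 2535 of the 60123 windows of the series, 4.22%, with no regard to their signal. The short arm, every window that starts below 121 Mb, held 2789 windows and is the comparison used throughout. Between these limits lay 23 windows.

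By its title, the series asks how PAF1 and PHF5A work with DDX3, an RNA helicase, in stem-like properties of pancreatic cancer. All libraries came from SW1990, an established line of human pancreatic ductal adenocarcinoma, from a population labelled SP. Cells were fixed with 1.5 mM EGS and 0.4% formaldehyde. The PAF1 group is 1 library, whose title calls the protein PD2, the PHF5A group is 1 library, and 1 input library was not analysed here. The libraries differ by antibody and by no mutation, knockdown or treatment. With 1 library per antibody no value has a replicate check, and the antibody of a library cannot be told apart from other features of that library. A value after ± is a counting standard error of 1 library and holds no spread between cultures. Signal is the mean over the 150 bp bins of a window, in the deposited units, summing to 4810548 for PAF1 and 4891421 for PHF5A over the bins of all windows; sequencing depth itself is not known from these sums.

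PAF1 is a subunit of the complex of the same name, which travels with RNA polymerase II, binds it during elongation and is needed for several histone modifications along transcribed genes. PHF5A is a small protein of the SF3b complex, which recognises the branch point of introns in the spliceosome. The long arm carries large clusters of related genes: next to the centromere lie recently duplicated segments, then come the epidermal differentiation genes (S100, small proline-rich, late cornified envelope and filaggrin-type genes), then immune receptor genes (CD1, Fc receptor-like, SLAM and Fc receptor genes). Most of these genes are known from skin or blood cells. RNA levels in SW1990 were not analysed here.

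Of the long arm windows, 725 had a promoter in the RefSeq table used (GRCh38.p14, 250 bp before to 50 bp after the start). Sequences are shown for the highest protein-coding promoter of the arm and for the highest and lowest member with an entry in each of the S100, SPRR, FCRL and CD1 families by the mean of both libraries, so that the promoters behind the highest and lowest family values can be read side by side. Capitals mark matches on either strand to one of these motifs. The TATA box was searched as TATAAA, which 11.5% of the 35116 RefSeq promoters of the table held. The CCAAT box was searched by the letters of its name, present in 34.6% of them. The GC box was searched as GGGCGG, present in 45.0% of them. FAIM3 lies at chr1:206923147-206923446, S100A5 at chr1:153541760-153542059, S100A6 at chr1:153535942-153536241, SPRR2F at chr1:153113467-153113766, FCRL1 at chr1:157820071-157820370 and FCRL2 at chr1:157777083-157777382, all on the minus strand. SPRR4 lies at chr1:152970398-152970697, CD1C at chr1:158289673-158289972 and CD1E at chr1:158353644-158353943 on the plus strand.
FAIM3: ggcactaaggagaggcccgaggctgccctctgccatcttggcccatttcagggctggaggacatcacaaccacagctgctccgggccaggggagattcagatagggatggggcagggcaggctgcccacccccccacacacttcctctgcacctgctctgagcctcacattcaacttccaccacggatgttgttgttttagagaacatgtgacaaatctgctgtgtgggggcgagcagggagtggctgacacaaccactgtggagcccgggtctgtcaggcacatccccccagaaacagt
S100A5: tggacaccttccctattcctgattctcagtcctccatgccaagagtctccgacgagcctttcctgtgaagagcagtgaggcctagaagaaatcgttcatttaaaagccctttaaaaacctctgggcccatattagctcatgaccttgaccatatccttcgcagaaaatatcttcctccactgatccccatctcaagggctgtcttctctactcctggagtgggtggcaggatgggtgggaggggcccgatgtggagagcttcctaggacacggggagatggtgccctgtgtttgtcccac
S100A6: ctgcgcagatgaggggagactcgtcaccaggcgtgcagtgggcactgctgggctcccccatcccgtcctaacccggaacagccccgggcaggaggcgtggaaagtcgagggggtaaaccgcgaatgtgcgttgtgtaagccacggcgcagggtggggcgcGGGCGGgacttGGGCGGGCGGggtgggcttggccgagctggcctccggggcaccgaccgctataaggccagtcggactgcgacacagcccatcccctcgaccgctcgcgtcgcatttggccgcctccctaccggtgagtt
SPRR2F: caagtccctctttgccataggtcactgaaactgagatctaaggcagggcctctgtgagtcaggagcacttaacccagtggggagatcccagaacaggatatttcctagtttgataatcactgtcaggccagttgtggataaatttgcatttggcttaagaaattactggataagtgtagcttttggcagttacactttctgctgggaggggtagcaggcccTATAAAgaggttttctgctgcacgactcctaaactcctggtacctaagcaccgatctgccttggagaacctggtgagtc
SPRR4: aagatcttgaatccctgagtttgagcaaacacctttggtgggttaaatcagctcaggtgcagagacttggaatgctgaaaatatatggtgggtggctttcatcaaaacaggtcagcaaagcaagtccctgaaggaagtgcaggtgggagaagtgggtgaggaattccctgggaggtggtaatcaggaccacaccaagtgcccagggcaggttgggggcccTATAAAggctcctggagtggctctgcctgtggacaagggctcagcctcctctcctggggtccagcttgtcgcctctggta
FCRL1: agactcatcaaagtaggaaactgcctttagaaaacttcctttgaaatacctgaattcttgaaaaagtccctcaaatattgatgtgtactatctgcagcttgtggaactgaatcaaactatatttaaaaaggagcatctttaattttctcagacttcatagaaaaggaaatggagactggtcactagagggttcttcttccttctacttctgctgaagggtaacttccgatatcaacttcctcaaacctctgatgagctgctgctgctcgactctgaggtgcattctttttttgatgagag
FCRL2: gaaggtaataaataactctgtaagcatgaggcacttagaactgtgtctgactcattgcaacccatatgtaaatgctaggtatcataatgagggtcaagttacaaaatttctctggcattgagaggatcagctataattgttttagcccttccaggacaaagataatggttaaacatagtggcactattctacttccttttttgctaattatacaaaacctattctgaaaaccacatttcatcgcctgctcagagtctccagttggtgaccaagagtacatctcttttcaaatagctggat
CD1C: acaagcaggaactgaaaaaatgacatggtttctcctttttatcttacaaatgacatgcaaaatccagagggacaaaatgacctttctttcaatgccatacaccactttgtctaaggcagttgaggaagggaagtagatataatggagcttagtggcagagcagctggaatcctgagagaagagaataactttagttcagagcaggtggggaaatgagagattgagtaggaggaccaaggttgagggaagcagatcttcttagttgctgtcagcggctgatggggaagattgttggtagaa
CD1E: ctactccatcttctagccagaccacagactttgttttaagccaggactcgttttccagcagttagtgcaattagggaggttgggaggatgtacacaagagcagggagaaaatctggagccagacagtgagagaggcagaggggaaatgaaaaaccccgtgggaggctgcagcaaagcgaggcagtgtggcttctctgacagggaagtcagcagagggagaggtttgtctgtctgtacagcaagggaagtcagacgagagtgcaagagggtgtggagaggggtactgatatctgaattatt
A match is a description of letters and not of a bound site. The S100A6 promoter stands out among these sequences, with a G+C content of 69.3%, 31 CG dinucleotides and 3 GGGCGG matches, of which the pair nearer to the start overlap. S100A5, its neighbour, had 52.3% and 6 CG dinucleotides. Both SPRR promoters hold 1 TATAAA, and the S100A5, FAIM3, FCRL and CD1 promoters shown hold none of the 3 motifs.

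Long arm promoters carried more signal than short arm promoters in both libraries. Their median was 5.38 with PAF1 on the long arm and 3.50 on the short arm, a ratio of 1.54. With PHF5A the medians were 5.70 on the long arm and 3.57 on the short arm, a ratio of 1.60. The median of all 60123 windows was 4.11 with PAF1 and 4.30 with PHF5A, so the arms lay on opposite sides of it. The middle range of windows, between the lower and upper quartile, was 3.50 to 7.29 on the long arm and 2.16 to 4.94 on the short arm with PAF1, and 3.91 to 7.60 on the long arm and 2.34 to 5.03 on the short arm with PHF5A, so the arms overlap widely. Above the median promoter of the library lay 67.4% of long arm and 37% of short arm windows with PAF1, and 69.3% of long arm and 36.2% of short arm windows with PHF5A. Windows of an arm share cells, library and chromosome copies and are not replicates, so these differences carry no test. The number of copies of either arm in SW1990 was not measured here, and its part in the difference was not tested.

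High windows were also more frequent on the long arm. A signal of at least 2 times the library's median promoter was reached with PAF1 by 429 long arm windows (16.9%) and 95 short arm windows (3.41%), beside 10.3% of all windows. With PHF5A it was reached by 413 long arm windows (16.3%) and 80 short arm windows (2.87%), beside 8.47% of all windows. Both libraries reached it at 269 long arm windows (10.6%) and 42 short arm windows (1.51%), beside 5.97% of all windows. The long arm thus lay above the background of the table and the short arm below it. Among the 23 other chromosomes of the table, 2 had a median above that of the long arm in each library. These were chromosome 20, with 6.05 for PAF1 and 6.53 for PHF5A, and chromosome 14, with 5.94 for PAF1 and 6.15 for PHF5A. The short arm lay above the medians of 6 other chromosomes.

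The difference between the arms was present in the larger gene classes, by RefSeq biotype. For protein-coding windows (951 on the long and 1047 on the short arm) the medians were 5.05 on the long and 2.94 on the short arm with PAF1, a ratio of 1.72, and 5.62 on the long and 3.13 on the short arm with PHF5A, a ratio of 1.80. Windows of long non-coding RNAs had medians of 6.50 on the long and 3.55 on the short arm with PAF1, and 5.92 on the long and 3.74 on the short arm with PHF5A. Pseudogene windows had 5.94 on the long and 4.22 on the short arm with PAF1, and 6.09 on the long and 4.19 on the short arm with PHF5A. These classes thus ran the same way as the coding windows. Windows of microRNAs had 6.06 on the long and 3.50 on the short arm with PAF1, and 6.12 on the long and 3.52 on the short arm with PHF5A. Windows without a RefSeq entry had 5.47 on the long and 3.70 on the short arm with PAF1, and 5.64 on the long and 3.85 on the short arm with PHF5A. The class of other small RNAs ran the opposite way, with medians of 0.820 on the long and 3.17 on the short arm with PAF1 and 0.915 on the long and 3.74 on the short arm with PHF5A. Of its 32 long arm windows, 17 belong to the 5S ribosomal RNA repeat, and the other 15 had medians of 2.61 with PAF1 and 3.07 with PHF5A. Long arm and short arm thus differed in the same direction for coding, long non-coding, pseudogene and microRNA promoters.

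**Figure D1:**
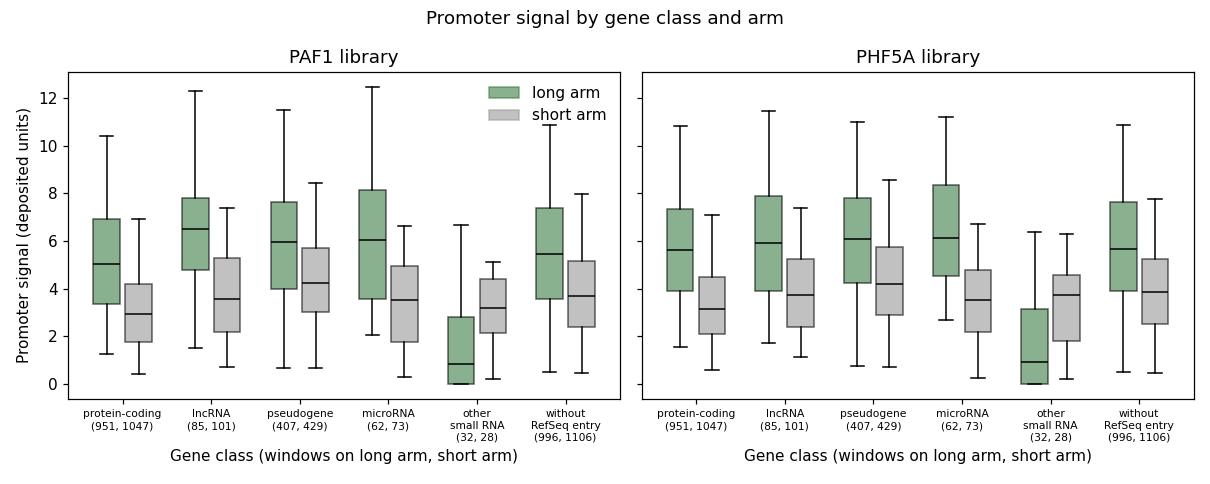
Promoter signal in deposited units (vertical axis) by gene class (horizontal axis, with the number of windows on the long and short arm), for the PAF1 library on the left and the PHF5A library on the right. Boxes show median and quartiles, whiskers the 5th and 95th percentile; the long arm box is the higher in each class except other small RNAs, and the boxes overlap.

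In 5 Mb steps the long arm was low beside the centromere, high over most of its length and lower at 225 to 230 Mb and at the end. The first step, from 143 to 145 Mb with 62 windows, had a median of 0.605 with PAF1 and 0.415 with PHF5A, and the step of 145 to 150 Mb with 178 windows had 1.91 with PAF1 and 1.98 with PHF5A. The next 15 steps, from 150 to 225 Mb, lay between 5.35 and 6.37 with PAF1 and between 5.42 and 6.84 with PHF5A. The highest step in both libraries was the 150 windows of 160 to 165 Mb, at 6.37 (PAF1) and 6.84 (PHF5A). Neighbouring steps of this stretch differ by less than their quartile ranges, which run from 4.68 to 8.42 with PAF1 at 160 to 165 Mb, and in 2 Mb steps the highest step began at 208 Mb with PAF1 and at 238 Mb with PHF5A, so the place of the maximum depends on the step size. On the short arm the highest of 25 steps was 4.94 with PAF1, at 115 to 120 Mb, and 4.97 with PHF5A, at 55 to 60 Mb. Of the 22 long arm steps, 17 with PAF1 and 19 with PHF5A lay above every short arm step. Across the 22 steps the medians of the libraries ranked alike, with a Spearman rho of 0.78, a description of points that share their chromatin.

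**Figure D2:**
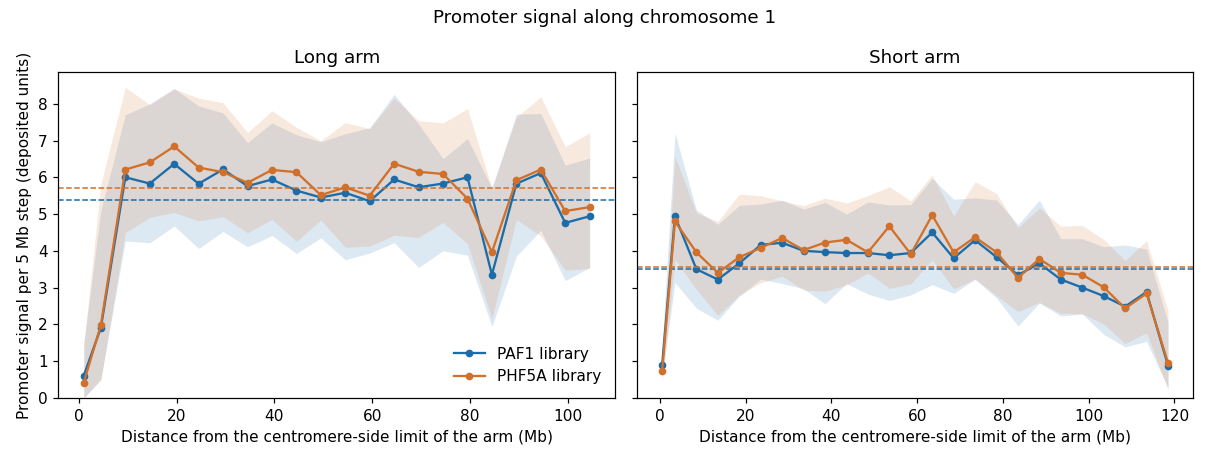
Median promoter signal per 5 Mb step in deposited units (vertical axis) against the distance from the centromere-side limit of the arm in Mb (horizontal axis), for the long arm on the left and the short arm on the right. Points and lines are step medians, bands run from the lower to the upper quartile, and dashed lines mark the arm median of each library; on the long arm the 15 steps between the low start and the dip lie between 5.35 and 6.84, above every step of the short arm.

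The low stretch beside the centromere was not uniform. Of the 53 long arm windows listed at 0 in both libraries, 39 lay between 143 and 150 Mb, where the duplicated NBPF, NOTCH2NL and histone genes lie. The NBPF and NOTCH2NL copies, genes of recent primate duplication, had a median of 1.50 with PAF1 and 1.48 with PHF5A over 14 windows, and NBPF17P, the highest by the mean of both libraries, had 4.05 with PAF1 and 1.95 with PHF5A. With PHF5A alone NBPF18P was the highest (3.13), and it lies outside this stretch, at 151.993 Mb. The 15 windows of the histone cluster 2 had a median of 0.770 with PAF1 and 1.22 with PHF5A, and HIST2H4A, HIST2H4B, HIST2H3A and HIST2H3C, copies of H4 and H3 genes, were listed at 0 in both. HIST2H2AB, an H2A gene, was the highest of this cluster at 10.3 ± 1.58 with PAF1 and 7.15 ± 1.31 with PHF5A. Reads of near-identical copies can be placed in several windows or dropped, so values in these families are uncertain. At a floor of 3 counts, scaled by the dispersion of counts, a window listed at 0 can hold a signal of 0.720 to 0.767, depending on library and bins.

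Inside this stretch a pair of islands reached the level of the rest of the arm. They were chosen after their values were seen. The first, from 145708000 to 146054000 with 22 windows, had medians of 5.64 with PAF1 and 6.69 with PHF5A, and the second, from 147204000 to 147908000 with 19 windows, had 6.88 with PAF1 and 7.32 with PHF5A. The other 199 windows between 143 and 150 Mb had medians of 0.880 with PAF1 and 1.06 with PHF5A, so the islands lie in a low surrounding. In the first island lies ITGA10, which encodes the integrin alpha 10 chain of a collagen receptor (chr1:145909689-145912189), at 15.2 ± 1.97 with PAF1 and 12.3 ± 1.77 with PHF5A. That is 9.31 times (PAF1) and 7.34 times (PHF5A) its regional level. The regional level is the median over 50 windows to either side that lie at least 10 kb away. Here those windows include low ones of the duplicated stretch, whose values are uncertain, so these ratios are uncertain too. Beside ITGA10, NUDT17, a nudix hydrolase gene, had 11.8 with PAF1 and 13.3 with PHF5A. TXNIP, which encodes the thioredoxin-interacting protein, had 9.94 with PAF1 and 13.3 with PHF5A. In the second island BCL9, which encodes a coactivator of beta-catenin, had 9.76 ± 1.58 with PAF1 and 11.7 ± 1.73 with PHF5A, and GJA5, the gene of connexin 40, had 12.1 with PAF1 and 9.50 with PHF5A. Each island thus holds genes at 2 or more times the median promoter in both libraries.

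The dip at 225 to 230 Mb covered 155 windows, with medians of 3.35 with PAF1 and 3.96 with PHF5A. It holds the 5S ribosomal RNA repeat, a tandem array of near-identical genes, of whose 17 windows 13 were listed at 0 in both libraries. RNA5S17, listed with 4.11 with PAF1 and 3.68 with PHF5A, was the highest of the array. Without these windows the step had medians of 3.86 with PAF1 and 4.17 with PHF5A, still below the 15 steps before it. From 228 to 229 Mb the other 42 windows had medians of 3.19 with PAF1 and 3.02 with PHF5A. The dip was therefore not confined to the repeat, but it was not continuous. From 225 to 226 Mb the medians were 3.22 with PAF1 and 3.63 with PHF5A. From 226 to 227 Mb they were 5.61 with PAF1 and 5.98 with PHF5A, above those of the long arm. The last steps were also lower than most of the arm, with medians of 4.76 with PAF1 and 5.08 with PHF5A at 240 to 245 Mb, and of 4.94 with PAF1 and 5.19 with PHF5A at 245 to 250 Mb.

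The highest protein-coding promoters of the long arm lay at several places along it, some of them close together. They were ranked by the lower of the percentile ranks of both libraries. FAIM3, which encodes an Fc receptor for IgM on lymphocytes (ENSG00000162894, chr1:206922747-206925247), had 18.2 ± 2.09 with PAF1 and 21.5 ± 2.28 with PHF5A, which is 3.0 times (PAF1) and 3.27 times (PHF5A) its regional level. OR6N1, an olfactory receptor gene (chr1:158766182-158768682), had 17.6 ± 2.12 with PAF1 and 18.1 ± 2.15 with PHF5A. C4BPB, which encodes the beta chain of the complement inhibitor C4b-binding protein (chr1:207004845-207007345), had 16.2 ± 2.03 with PAF1 and 17.7 ± 2.13 with PHF5A. These 3 stood at 3.95 to 5.0 times the median promoter of the library. NUF2, a subunit of the kinetochore complex that binds microtubules, had 19.3 ± 2.15 with PAF1 and 15.5 ± 1.94 with PHF5A. APCS, the gene of serum amyloid P, had 14.9 with PAF1 and 14.1 with PHF5A, MPZL1, a cell surface glycoprotein gene, had 14.1 with PAF1 and 12.8 with PHF5A, TNN, which encodes the matrix protein tenascin N, had 13.6 with PAF1 and 12.3 with PHF5A, and ITGA10, given above, completed the 8. All 8 lay at 2 or more times the median promoter in both libraries, and all 8 were higher than their regional level in both. Both facts follow largely from the choice of these windows as the highest, and are no separate result. Of any biotype, the 3 highest windows were FAIM3, a transcript listed under ENSG00000237131 with 17.8 with PAF1 and 18.2 with PHF5A, and OR6N1.

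FAIM3 and C4BPB lie close together, in a stretch of 21 windows from 206771994 to 207322008 that was described after its values were seen. The medians of the stretch were 7.61 with PAF1 and 8.94 with PHF5A. It starts with the interleukin genes of the IL10 family, whose 4 members had medians of 5.72 with PAF1 and 7.51 with PHF5A. IL24, a cytokine gene, was their highest at 8.66 ± 1.44 with PAF1 and 11.01 ± 1.63 with PHF5A, and IL20 was the lowest by the mean of both libraries with 4.94 with PAF1 and 3.07 with PHF5A. With PAF1 alone IL19 was the lowest (4.77). Next to FAIM3 lie PIGR, the gene of the polymeric immunoglobulin receptor, with 5.38 with PAF1 and 5.92 with PHF5A, and FCAMR, an Fc receptor gene for IgA and IgM, with 7.61 with PAF1 and 10.3 with PHF5A. PIGR lay below its regional level in both libraries, and FCAMR above it. Beyond C4BPB, the alpha chain gene C4BPA had 12.2 ± 1.71 with PAF1 and 10.6 ± 1.60 with PHF5A and CD55, which encodes a complement inhibitor of the cell surface, closed the stretch with 2.11 with PAF1 and 2.54 with PHF5A. Signal in this stretch thus differed severalfold between neighbouring genes.

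Among the epidermal differentiation genes, the small proline-rich genes were high as a group and the S100 genes were not. The SPRR genes, precursors of the cornified envelope of keratinocytes, had a median of 7.47 with PAF1 and 9.94 with PHF5A over 11 windows between 152.969 and 153.150 Mb. With PAF1 this was 1.39 times the long arm and 2.13 times the short arm median, and with PHF5A 1.74 times the long arm and 2.78 times the short arm median. All 11 lay above the long arm median with PAF1 and 10 with PHF5A, beside 50% of the arm by construction. Against their regional level the difference was smaller, with a median of 1.12 times that level with PAF1 and 1.46 times with PHF5A. Above it lay 7 members with PAF1 and 9 with PHF5A. SPRR2F had 11 ± 1.63 with PAF1 and 9.94 ± 1.55 with PHF5A, and SPRR3 had 8.52 ± 1.47 with PAF1 and 11.5 ± 1.72 with PHF5A. SPRR2C was the lowest by the mean of both libraries, at 8.66 ± 1.44 with PAF1 and 5.19 ± 1.12 with PHF5A. The other 8 members ranged from 6 to 8.94 with PAF1 and from 6.86 to 11.2 with PHF5A, and all 11 lay above the short arm median in both libraries.

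SPRR signal was higher with PHF5A than with PAF1 at most members. After each library was divided by its median promoter, PHF5A was the higher at 8 of 11, for example at SPRR2D with 6.35 with PAF1 and 10.6 with PHF5A and at SPRR2B with 6.77 with PAF1 and 11.2 with PHF5A. SPRR4, SPRR2F and SPRR2C ran the other way. Summed over the 11 windows, the ratio of PAF1 to PHF5A was 0.841, with a 95% counting interval of 0.730 to 0.970. Over all protein-coding long arm windows the same ratio was 0.948, so a ratio below 1 is not particular to SPRR genes. The counting interval holds no spread between libraries, so the difference has no replicate check. A RefSeq promoter was at hand for 8 of the 11 SPRR genes, and 7 of these hold TATAAA, at 29 or 30 bp before the start on the strand of the gene. The same placement, 20 to 40 bp before the start and on the same strand, was found in 2.30% of all RefSeq promoters. As fewer than 80% of SPRR and S100 windows have an entry, base composition was not compared over these families.

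The 17 S100 windows, of genes for small calcium-binding proteins, had a median of 5.35 with PAF1 and 6.15 with PHF5A between 151.994 and 153.634 Mb. With PAF1 this was 0.99 times the long arm and 1.53 times the short arm median, and with PHF5A 1.08 times the long arm and 1.72 times the short arm median, with 8 members above the long arm median with PAF1 and 12 with PHF5A. Against the 50% of the arm that lies above by construction, this is no excess with PAF1. With means in place of medians the PAF1 ratio to the long arm was 1.01, and against protein-coding windows alone it was 1.06. The S100 members had a median of 0.82 times their regional level with PAF1 and 0.93 times with PHF5A. S100A5 was the highest at 8.94 ± 1.47 with PAF1 and 9.11 ± 1.48 with PHF5A, and S100A12, the calgranulin C gene, had 8.77 ± 1.45 with PAF1 and 8.21 ± 1.41 with PHF5A. S100A6, the calcyclin gene, was the lowest by the mean of both libraries, at 3.22 ± 0.880 with PAF1 and 2.62 ± 0.797 with PHF5A. Its start lies within 10 kb of that of S100A5, so the highest S100 promoter and the lowest by this mean are close neighbours. S100A10, which encodes the annexin A2 partner p11, was the lowest with PAF1 alone, having 2.44 with PAF1 and 3.68 with PHF5A. S100A7L2, a pseudogene, was the lowest with PHF5A alone, having 4.33 with PAF1 and 2.51 with PHF5A. In those libraries the gaps to S100A6 are within the counting errors, so which S100 member is the lowest is uncertain. Of the calprotectin genes, S100A8 had 4.72 with PAF1 and 7.21 with PHF5A, and S100A9 had 7 with PAF1 and 5.86 with PHF5A. S100A4, known for its part in metastasis, had 7.29 with PAF1 and 8.58 with PHF5A, above the arm median in both. S100A2 had 3.77 with PAF1 and 4.02 with PHF5A, S100A14 had 6 with PAF1 and 6.53 with PHF5A, and S100A16 had 5.58 with PAF1 and 6.15 with PHF5A. The windows of S100A3 and S100A4 each overlap another window, as do those of S100A10 and S100A13. Of the 10 S100 promoters with an entry, 4 hold TATAAA and 4 hold GGGCGG.

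The neighbouring epidermal lists spread widely. The 18 late cornified envelope genes, which also encode envelope proteins, had a median of 5.08 with PAF1 and 5.92 with PHF5A. LCE1B, with 11 with PAF1 and 10.2 with PHF5A, and LCE1E, with 11.1 with PAF1 and 9.89 with PHF5A, were the highest members in both libraries, LCE1E first with PAF1 and LCE1B first with PHF5A. LCE1D, with 0.880 with PAF1 and 0.550 with PHF5A, and LCE3B, with 0.350 with PAF1 and 1.47 with PHF5A, were the lowest members in both, LCE3B below LCE1D with PAF1 and above it with PHF5A. LCE1D and LCE3B thus lay below the short arm median, inside a cluster in which LCE1B and LCE1E reached 2 times the median promoter. LCE3B with PAF1 and LCE1D with PHF5A lay below the floor of 3 counts, so the order of this pair is uncertain. The 7 fused S100-type genes had a median of 6.88 with PAF1 and 8.43 with PHF5A, all 7 above the long arm median with PHF5A and 6 with PAF1. FLG, the gene of filaggrin, which bundles keratins in the outer skin, had 11.2 ± 1.69 with PAF1 and 11.3 ± 1.70 with PHF5A, and TCHHL1 was the lowest by the mean of both libraries with 4.27 with PAF1 and 6.42 with PHF5A. With PHF5A alone HRNR was the lowest (6.03), and RPTN (13.0) was above FLG.

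The CD1 genes were the highest of the 4 families. They encode the molecules that present lipid antigens to T cells, and their 5 windows between 158.178 and 158.352 Mb had a median of 9.44 with PAF1 and 10.6 with PHF5A. With PAF1 this was 1.75 times the long arm and 2.70 times the short arm median, and with PHF5A 1.86 times the long arm and 2.97 times the short arm median, and all 5 lay above the long arm median in both libraries. CD1B had 10.7 ± 1.65 with PAF1 and 13.2 ± 1.84 with PHF5A. CD1C had 10.9 ± 1.62 with PAF1 and 11.3 ± 1.66 with PHF5A. CD1D, whose product presents lipids to natural killer T cells, had 9.44 ± 1.51 with PAF1 and 10.6 ± 1.60 with PHF5A. All 3 lay above CD1A, at 8.64 ± 1.48 with PAF1 and 7.22 ± 1.36 with PHF5A, and CD1E, the lowest at 8.11 ± 1.40 with PAF1 and 7.21 ± 1.32 with PHF5A. The gaps between CD1A and CD1E are within their counting errors, as are those between CD1B and CD1C and, with PAF1, between CD1D and CD1A. All 5 exceeded their regional level in both libraries, with a median of 1.40 times that level with PAF1 and 1.56 times with PHF5A. Summed over the family, the PAF1 to PHF5A ratio was 0.986, with a 95% counting interval of 0.810 to 1.20. Of the 4 CD1 promoters with an entry, none holds TATAAA or GGGCGG and 2 hold CCAAT, and their median G+C content was 45.2%, beside 58.7% for all RefSeq promoters.

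The Fc receptor-like genes, immunoglobulin-type receptors found mainly on B cells, had a median of 6.63 with PAF1 and 6.79 with PHF5A over 8 windows. This was 1.23 times (PAF1) and 1.19 times (PHF5A) the long arm median and 1.90 times the short arm median in both libraries, with 4 members above the long arm median with PAF1 and 5 with PHF5A. Against their regional level the members had a median of 1.00 times with PAF1 and 1.03 times with PHF5A, so they were close to their surroundings. FCRL1 had 8.33 ± 1.41 with PAF1 and 9.50 ± 1.52 with PHF5A. FCRLB, which lies beside FCRLA at 161.720 Mb and apart from FCRL1 to FCRL5, had 8.55 ± 1.43 with PAF1 and 8.43 ± 1.43 with PHF5A. FCRL6 had 8 with PAF1 and 8.16 with PHF5A, and FCRL5 had 7.94 with PAF1 and 6.76 with PHF5A. These 4 formed an upper group with PAF1, at 7.94 or above. FCRL4 had 5.33 with PAF1 and 4.91 with PHF5A, FCRLA had 4.64 with PAF1 and 4.91 with PHF5A, and FCRL3 had 3.88 with PAF1 and 6.81 with PHF5A. FCRL2 was the lowest by the mean of both libraries at 4.17 ± 1.03 with PAF1 and 4.02 ± 1.01 with PHF5A, and FCRL3 was the lowest with PAF1 alone. FCRL1 and FCRL2 are neighbours, and FCRL1 exceeded FCRL2 in both libraries by more than their counting errors. All 8 FCRL promoters have an entry; none holds TATAAA or GGGCGG, 2 hold CCAAT, and their median G+C content was 40.7%.

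**Figure D3:**
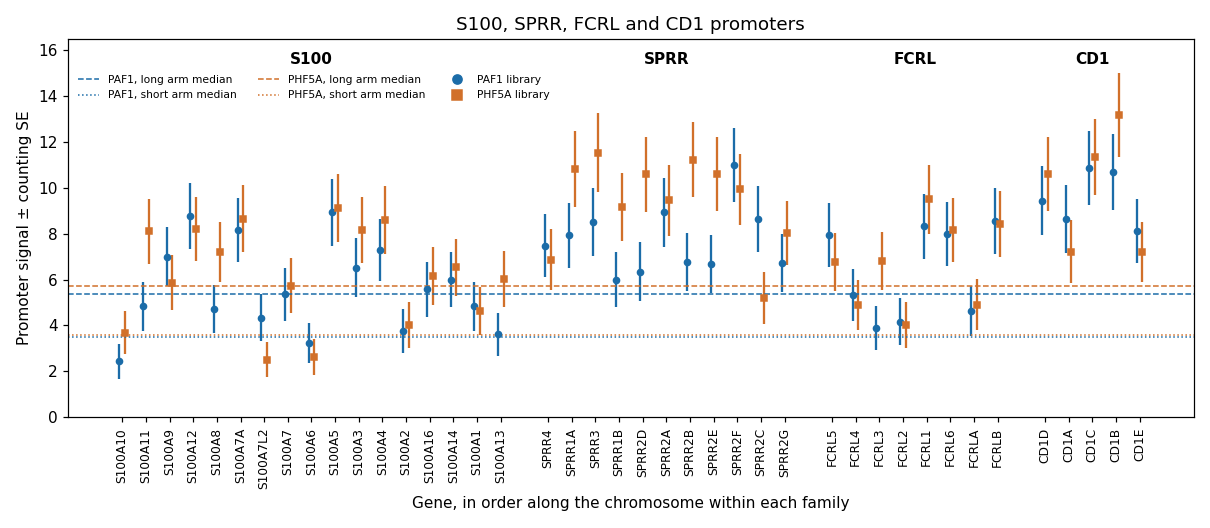
Promoter signal in deposited units (vertical axis) of every S100, SPRR, FCRL and CD1 window, in order along the chromosome (horizontal axis), with bars of 1 counting standard error, for the PAF1 library and the PHF5A library. The lines mark the long arm and short arm medians; all CD1 and nearly all SPRR members lie above the long arm median, and S100 and FCRL members lie on both sides of it.

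Other immune clusters of the long arm ranged from above to well below its median. The 9 SLAM family genes, receptors between lymphocytes, had a median of 7.05 with PAF1 and 7.04 with PHF5A, and by the mean of both libraries SLAMF8 was the highest at 10.8 with PAF1 and 10.1 with PHF5A, and CD244 the lowest at 4.33 with PAF1 and 5.98 with PHF5A. Both ranks hold with PAF1 alone. With PHF5A alone CD84 was the highest, having 5.66 with PAF1 and 11.6 with PHF5A, and SLAMF6 was the lowest (5.03). The 4 PYHIN genes, sensors of DNA, had 8.29 with PAF1 and 6.03 with PHF5A, with AIM2, which starts an inflammasome, at 13.1 ± 1.83 with PAF1 and 9.58 ± 1.57 with PHF5A, and IFI16 the lowest with 4.88 with PAF1 and 5.42 with PHF5A. The 8 Fc gamma and Fc epsilon receptor genes had the low median of 3.71 with PAF1 and 3.58 with PHF5A. FCER1G, the shared signalling chain, stood at 11.6 with PAF1 and 8.32 with PHF5A. FCGR2B and FCGR2C, near-identical genes, were the lowest, both listed with 0.610 with PAF1 and 0.720 with PHF5A. Their windows overlap almost fully, so these values are not independent, and both enter the median. FCGR1A, with 1.16 with PAF1 and 1.73 with PHF5A, lies in the low stretch beside the centromere. Of the 8 windows, 4 with PAF1 and 3 with PHF5A lay above the long arm median. The SLAM and PYHIN medians thus lay above the long arm median in both libraries, and the Fc receptor median below it.

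Olfactory receptor symbols form 2 clusters on the arm. The 32 windows from 158.399 to 159.596 Mb, next to the CD1 genes, had a median of 6.94 with PAF1 and 7.09 with PHF5A, and 27 with PAF1 and 25 with PHF5A of them lay above the long arm median. Against their regional level these windows had a median of 0.99 times with PAF1 and 1.01 times with PHF5A. OR6N1 was their highest in both libraries, and OR10J7P was the lowest by the mean of both, at 4.35 with PAF1 and 4.97 with PHF5A. With PAF1 alone OR10J4 was the lowest, having 2.41 with PAF1 and 8.46 with PHF5A. The 58 windows from 247.451 to 248.682 Mb near the chromosome end had a median of 5.20 with PAF1 and 5.19 with PHF5A, with 26 with PAF1 and 22 with PHF5A above the long arm median. There OR2C3 was the highest with 11.8 with PAF1 and 11.8 with PHF5A, and OR2T29 and OR2T35 were the lowest, both with 0 with PAF1 and 0.160 with PHF5A. The median of the first cluster was thus the higher in both libraries.

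The 6 flavin monooxygenase genes, enzymes of drug oxidation and all but FMO5 farther along the arm, had a median of 6.60 with PAF1 and 7.51 with PHF5A. Their highest, FMO6P, a pseudogene, had 9.83 with PAF1 and 11.96 with PHF5A, and FMO4, the lowest by the mean of both libraries, had 5.55 with PAF1 and 6.09 with PHF5A. FMO5, which lies at 147.243 Mb in the second island described above, was the lowest with PAF1 alone (4.94), and FMO1 with PHF5A alone (5.14). The 12 windows of RGS genes, regulators of G protein signalling, had a median of 4.97 with PAF1 and 7.50 with PHF5A. RGS8 was their highest, with 13.9 with PAF1 and 11.1 with PHF5A, and RGS16 was the lowest by the mean of both libraries, with 3.22 with PAF1 and 3.24 with PHF5A. With PAF1 alone RGS1 was the lowest (2.94). The 14 windows of complement regulators had 4.51 with PAF1 and 4.36 with PHF5A, from C4BPB at the top to CFHR4, a factor H-related gene, with 2 with PAF1 and 2.45 with PHF5A. The short arm lists used as counterparts all had medians below that of the long arm. The PRAME family genes had a median of 1.38 with PAF1 and 1.39 with PHF5A, and the guanylate-binding protein genes had 3.16 with PAF1 and 4.26 with PHF5A. The CYP4 genes had a median of 3.27 with PAF1 and 3.18 with PHF5A, and the GSTM genes had 4 with PAF1 and 2.34 with PHF5A. The TNF receptor genes had a median of 1.35 with PAF1 and 1.39 with PHF5A, and the amylase genes were listed at a median of 0 in both libraries. PRAME, GSTM and amylase genes also have near-identical copies.

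**Figure D4:**
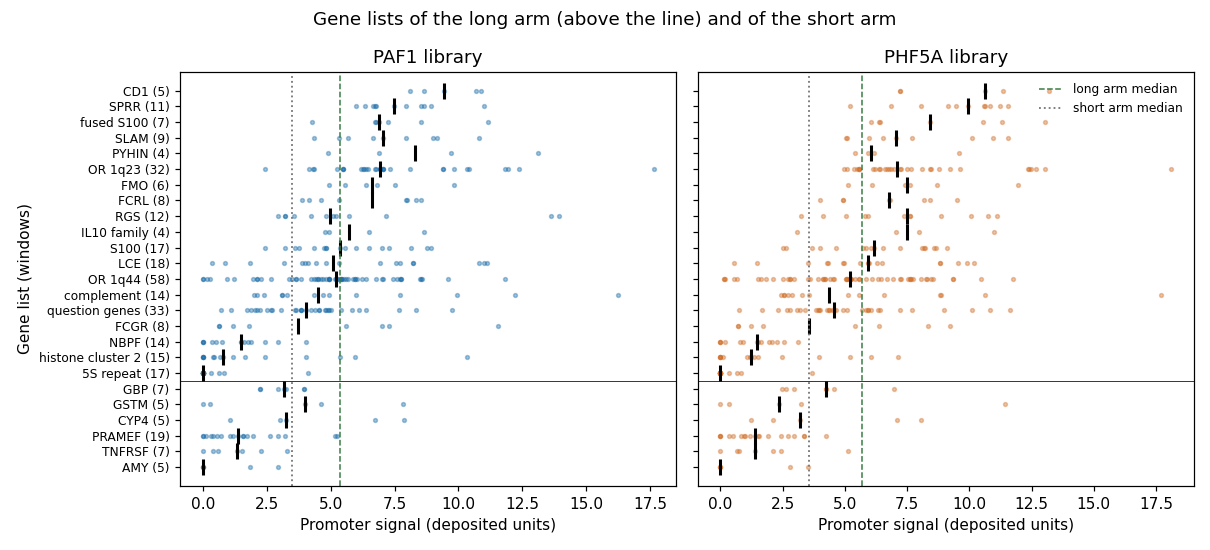
Promoter signal in deposited units (horizontal axis) of each window, as points, and the list median, as a bar, for each gene list (vertical axis, with the number of windows), in the PAF1 and PHF5A libraries. Long arm lists stand above the horizontal line and short arm lists below it, and dashed and dotted lines mark the long arm and short arm medians; CD1 and SPRR lists have medians well above the long arm median the 5S list has a median of 0, and the NBPF and histone lists have medians below the short arm median.

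The genes tied to the question of the series were, as a list, not high on the long arm. The 33 genes of the PAF1 complex, the spliceosome, RNA helicases, stemness and pancreatic cancer had a median of 4.05 with PAF1 and 4.55 with PHF5A, and 7 with PAF1 and 12 with PHF5A lay above the long arm median. Against the median of protein-coding long arm windows, 5.05 with PAF1 and 5.62 with PHF5A, the list was lower too. CDC73, a subunit of the PAF1 complex, had 4.38 ± 1.03 with PAF1 and 5.86 ± 1.19 with PHF5A. SF3B4, a partner of PHF5A in the SF3b complex, had 6.38 ± 1.24 with PAF1 and 7.21 ± 1.32 with PHF5A. This was above its regional level in both libraries, a level that includes windows of the low stretch beside the centromere. Of other spliceosome genes, PRPF3 had 4.83 with PAF1 and 4.02 with PHF5A, and SNRPE had 2.23 with PAF1 and 2.30 with PHF5A. The RNA helicase genes followed, DHX9 with 2.66 with PAF1 and 5.08 with PHF5A, and DDX59 with 4.55 with PAF1 and 3.91 with PHF5A. SF3B4 thus stood above and SNRPE below the arm median in both libraries.

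Of the stemness and cancer genes, BCL9, given above, was the highest. CKS1B, a cell cycle kinase subunit gene, had 8.35 with PAF1 and 10.8 with PHF5A, and DDR2, a collagen receptor kinase gene, had 7.66 with PAF1 and 10.1 with PHF5A. Among stem cell markers, NES, which encodes nestin, had 5 with PAF1 and 3.40 with PHF5A, CD34 had 4.77 with PAF1 and 8.99 with PHF5A, and LGR6 had 2.52 with PAF1 and 2.78 with PHF5A. CD34 was thus above the arm median with PHF5A and below it with PAF1. MUC1, a mucin gene of pancreatic carcinoma, had 3.82 with PAF1 and 4.49 with PHF5A, MCL1, a survival gene of the BCL2 family, had 3.61 with PAF1 and 3.85 with PHF5A, and ELF3, an epithelial transcription factor gene, had 3.82 with PAF1 and 4.55 with PHF5A. LAMB3, a laminin gene, had 5.83 with PAF1 and 5.70 with PHF5A, at or above the long arm median. MUC1, MCL1 and ELF3 lay between the short arm and long arm medians in both libraries. WNT9A, a WNT ligand gene, was the lowest by the mean of both libraries at 1.11 ± 0.533 with PAF1 and 0.760 ± 0.444 with PHF5A, and its neighbour WNT3A had 1.88 with PAF1 and 1.67 with PHF5A. With PAF1 alone ARNT, the gene of a partner of the hypoxia-inducible factors, was the lowest, having 0.720 with PAF1 and 2.68 with PHF5A. Over the list, the summed signal had a PAF1 to PHF5A ratio of 0.822, with a 95% counting interval of 0.736 to 0.919. The interval again holds no spread between libraries. Over all protein-coding long arm windows the same ratio was 0.948. Neither ratio has a replicate check, so whether the list differs from these windows was not tested.

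The libraries ranked long arm windows alike, with a Spearman rho of 0.82, beside 0.80 on the short arm. Both describe windows that share chromatin and neighbours. On the scale of log2(signal + 0.5), each library centred on its median promoter, PAF1 was at least 2-fold higher at 21 long arm windows (0.828%), beside 1.89% of all windows. PHF5A was at least 2-fold higher at 43 (1.70%), beside 2.26% of all windows. Long arm shares thus did not exceed those of the table. These counts depend on the pseudocount: with 1 in place of 0.5, PAF1 was 2-fold higher at 8 and PHF5A at 20 long arm windows. The difference reached 2 counting standard errors at 49 of 2461 long arm windows with counts (1.99%). On the short arm it did so at 25 of 2708 (0.923%), and over all windows the share was 1.84%. At no window of either arm did it reach 3. The counting error was scaled by the differences between these same libraries over all windows, so these counts do not measure how well the libraries agree. The median difference on the long arm minus that on the short arm was -0.0051 on the log2 scale.

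The windows named here are the largest differences among the 1551 at or above both library medians. TNNI1, which encodes slow skeletal troponin I, had 11.5 ± 1.66 with PAF1 and 5.86 ± 1.19 with PHF5A, a log2 difference of 0.97 ± 0.36. TRAF3IP3, a gene of lymphocytes, had 10.9 with PAF1 and 6.09 with PHF5A, RP5-1065P14.2 had 8.94 with PAF1 and 5.14 with PHF5A, and PLXNA2, a semaphorin receptor gene, had 7.52 with PAF1 and 4.37 with PHF5A. In the other direction C1orf74 had 4.38 ± 1.03 with PAF1 and 10 ± 1.55 with PHF5A, a log2 difference of -1.05 ± 0.41. SCARNA3, a small RNA of Cajal bodies, had 4.41 with PAF1 and 9.94 with PHF5A, RP11-38O14.6 had 5.58 with PAF1 and 12.4 with PHF5A, and RP11-177A2.5 had 5.55 with PAF1 and 12.1 with PHF5A. They are the extremes of 1 pair of libraries and have no replicate check.

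**Figure D5:**
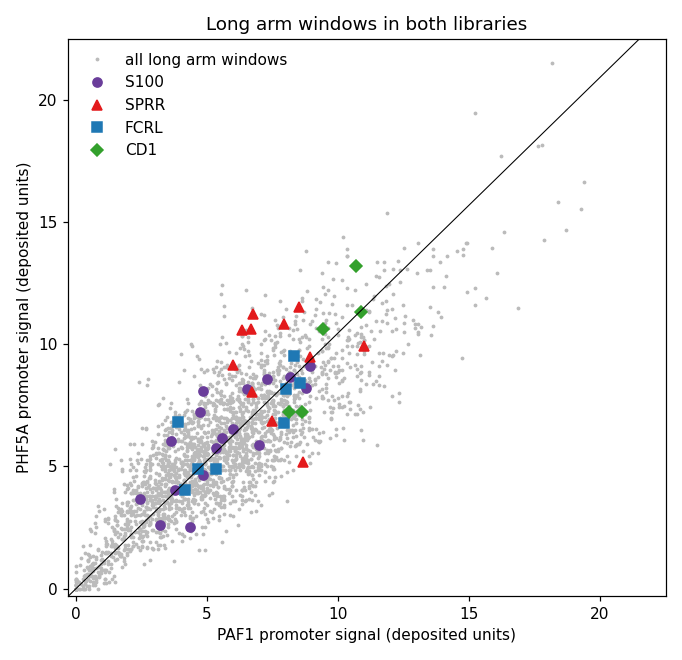
PHF5A signal (vertical axis) against PAF1 signal (horizontal axis), both in deposited units, for the 2535 long arm windows, with the S100, SPRR, FCRL and CD1 members marked. The line has the slope of the ratio of the median promoters, and 8 of 11 SPRR members lie above it.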

How the data were processed

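ChIP-seq of PAF1 and PHF5A in SW1990 cells gave 1 library per antibody. The deposited signal is a mean per promoter window, per the file headers, with its normalization not stated there or in the labels. Tools named in the submitters' processing notes are bedtools, deepTools, Picard, Bowtie2 2.2.3 and Trim Galore, with GRCh38 (hg38) as the build, without their order or settings. Every value, PHF5A after division by 1.00608, was a mean of whole numbers over 150 bp bins within a tolerance of 0.0051. The counting standard error is the square root of the dispersion (4.32, from 51445 non-overlapping windows) times the sum over the bins, and this was divided by how many bins the window touches. The dispersion holds differences between the antibodies and is an upper bound, and errors, intervals and floors cover counting alone.

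Windows were grouped by chromosome and start, into 5 Mb steps and into gene lists matched by symbol. Protein-coding and other classes came from RefSeq biotypes, with an entry for 1497 of 2535 long arm windows, and 42 further windows were classed as protein-coding by the style of their symbol. Differences used log2(signal + 0.5). RefSeq promoters were matched for 28.6% of long arm windows and 70.1% of protein-coding ones, below the required 80%, so a check of signal against base composition over the arm was void. Overlap with another window was found for 296 long arm windows.

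Named genes follow a rule: all CD1 and FCRL members, the 2 highest and the lowest member of S100 and SPRR, the highest and lowest of other lists, the 8 highest protein-coding windows, the 3 highest of any class, the 4 largest differences each way, and the genes tied to the question of the series. Other genes named from these lists or beside them were chosen after their values were seen, and some genes and 1 list are not reported here. The members and lists were chosen with earlier results of these data known. With 1 library per antibody there was no test between groups, and procedures were tested on simulated data. Alternatives were a filter at a signal of 1, other pseudocounts, thresholds, steps, window sets and averages. The work used SciPy 1.17.1, numpy 2.4.6, pandas 2.3.3, matplotlib 3.10.9 and Python 3.11.15.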

Additional observations from a re-analysis of the deposited data

Results flagged for a closer look

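The 23 windows between the limits set for the arms belong to no comparison above. They start between 121008007 and 121580024, close to the limit of the short arm. Of the 23 windows, 16 were above the floor of 3 counts in both libraries, which is what marked them for a closer look. RP11-343N15.2 was the highest with 8.83 for PAF1 and 8.21 for PHF5A, RP11-344P13.4 had 8.05 for PAF1 and 6.48 for PHF5A, and FAM72B was the lowest with 0.05 for PAF1 and 0.11 for PHF5A. The windows of AC244021.1, with 8.38 for PAF1 and 7.65 for PHF5A, and RP11-343N15.2 overlap, so these values are not independent. No control library stands beside these values.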

How the results depend on the processing

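Of 115 alternatives to 30 results, 82 stayed within the spread set for them and 33 moved. The ratio of S100 to the long arm median with PAF1, 0.99, crossed 1 under 2 of them, at 1.01 with means and 1.06 against protein-coding windows, and no other ratio or difference changed sides. The ratio of the long arm to the short arm median stayed between 1.51 and 1.72 with PAF1 and between 1.53 and 1.80 with PHF5A, and all 56 ratios of the long arm or its families to the short arm lay above 1, from 1.46 to 3.39. For protein-coding windows the arm ratio was 1.72 with PAF1 and 1.80 with PHF5A, and the share of high long arm windows with PAF1 was 14.1%. At 1.5 times the median promoter that share was 39.4% with PAF1 and 38.9% with PHF5A, and at 2 times the mean promoter it was 11.3% with PAF1 and 11.4% with PHF5A. Against protein-coding windows of the short arm, the family ratios with PAF1 were 1.82 for S100, 2.54 for SPRR, 2.26 for FCRL and 3.21 for CD1, and with PHF5A 1.96 for S100, 3.18 for SPRR, 2.17 for FCRL and 3.39 for CD1. With means in place of medians, FCRL with PAF1 was 1.15 times the long arm and 1.73 times the short arm, and 1.76 times the short arm with PHF5A. With PHF5A, SPRR was then 1.62 times the long arm and 2.47 times the short arm, and CD1 1.71 times the long arm and 2.60 times the short arm. Windows 2-fold higher with PAF1 numbered 43 with a pseudocount of 0.1, 8 with a pseudocount of 1, 13 with a mean signal of at least 1, and 166 at 1.5-fold. Windows 2-fold higher with PHF5A numbered 82 with a pseudocount of 0.1, 20 with a pseudocount of 1, and 228 at 1.5-fold. The highest step began at 208 Mb with PAF1 and 238 Mb with PHF5A in 2 Mb steps, and at 175 Mb with PAF1 for protein-coding windows. Without the 5S repeat, an alternative chosen after seeing the data, the PAF1 median of 225 to 230 Mb was 3.86. The cause of these shifts was not tested beyond what the settings change by construction.

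No paired analysis was possible because each antibody has 1 library, and for the same reason there was no run with a library left out. Promoter base composition as an alternative was not run, as too few windows have a RefSeq promoter. Counting error limits single windows: S100A7, close to the long arm median with PAF1, had 5.35 ± 1.17. At none of 2461 windows did the libraries differ by 3 counting standard errors. That error was scaled by the differences between these libraries, so this count cannot show whether depth or agreement lies behind it. The number of chromosome copies, mappability and input signal were not measured here, and their part in the level of the arm was not tested.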
